A study of Homo sapiens with 8 samples.

Results

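The TAZ binding sites called after 48 h and after 72 h of doxycycline were compared to find where TAZ was called only at the later time. Each peak was placed in 1 of 3 classes by an overlap of at least 1 bp between both lists. A peak of the 72 h list with no 48 h peak under it was new, a peak with a partner was kept, and a 48 h peak with no 72 h partner was not called again. Of 38667 peaks at 72 h, 27685 were new (71.6%, exact binomial 95% interval 71.1 to 72.0) and 10982 were kept. Of 11767 peaks at 48 h, 11219 were kept and 548 were not called again (4.66%, 4.28 to 5.05).

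TAZ is a transcriptional coactivator at the end of the Hippo pathway, a kinase cascade that restrains growth by keeping TAZ and its paralog YAP out of the nucleus. TAZ does not bind DNA itself: it is carried to its sites mainly by the TEAD factors, often beside AP-1 factors (FOS and JUN dimers), and in epithelial cells most of these sites are enhancers far from genes. Promoters that start transcription in most tissues are commonly rich in CG dinucleotides, and many are bound by factors such as ETS proteins, NRF1, YY1 and ZNF143.

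The cells were MCF10A, a line of human mammary epithelial cells that are not transformed, transduced with TAZ-4SA under a doxycycline (Dox) promoter. TAZ-4SA is an activated TAZ in which serines that the Hippo kinases phosphorylate are replaced. Cells had no Dox or 0.05 µg/ml Dox for 24, 48 or 72 h, and chromatin of each of the 4 groups was precipitated once with 5 µg of a TAZ antibody and once with IgG, which gave 8 libraries. The antibody does not separate TAZ-4SA from the cells' own TAZ, and all groups carried the transgene. There was 1 TAZ library and 1 peak list for each time, so no difference below has a replicate check and none was tested. Intervals on shares and medians cover counting error only, and hours of Dox cannot be told apart from a difference between 2 libraries.

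Both libraries differed in ways that touch every result. The background coverage, solved from the deposited fold enrichments and p-values, was 2.84 fragments at 48 h and 2.01 at 72 h. The longer list thus came from the library with the lower background coverage. The base composition within 100 bp on either side of the summits also differed, with a median GC content of 43.3% in the 48 h list and 49.8% in the 72 h list, against 44.3% in the 24 h list (2447 peaks) and 61.7% without Dox (2420 peaks). Windows spaced evenly over the genome had a median of 39.8%.

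Base composition moved with the change of kept peaks between the lists. Among 1-to-1 pairs of kept peaks in 5 groups from the lowest to the highest GC content, the median ratio of 72 h to 48 h fold enrichment was 1.33 (1.29 to 1.36), 1.63, 1.88, 2.09 and 2.54 (2.48 to 2.59). Fold enrichment is the fragment coverage at the summit over the local background. The trend was as steep away from promoters, where the ratio was 1.32 in the lowest group and 2.48 in the highest, and it stood in the summit coverage itself, whose ratio went from 1.08 to 2.22. Between 24 h and 48 h no such trend was seen: the ratio was 1.54 (1.46 to 1.61) in the lowest group and 1.32 (1.28 to 1.37) in the highest. Between 24 h and 72 h it was 1.87 and 3.48. Against the no-Dox list the order was the opposite: from the second lowest group, the lowest with at least 20 pairs, to the highest, the ratio went from 4.51 to 1.59 for 72 h, from 2.58 to 1.47 for 48 h and from 1.74 to 1.24 for 24 h. Whether the cells or the library preparation gave the trend from 24 h or 48 h to 72 h was not tested.

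**Figure D1:**
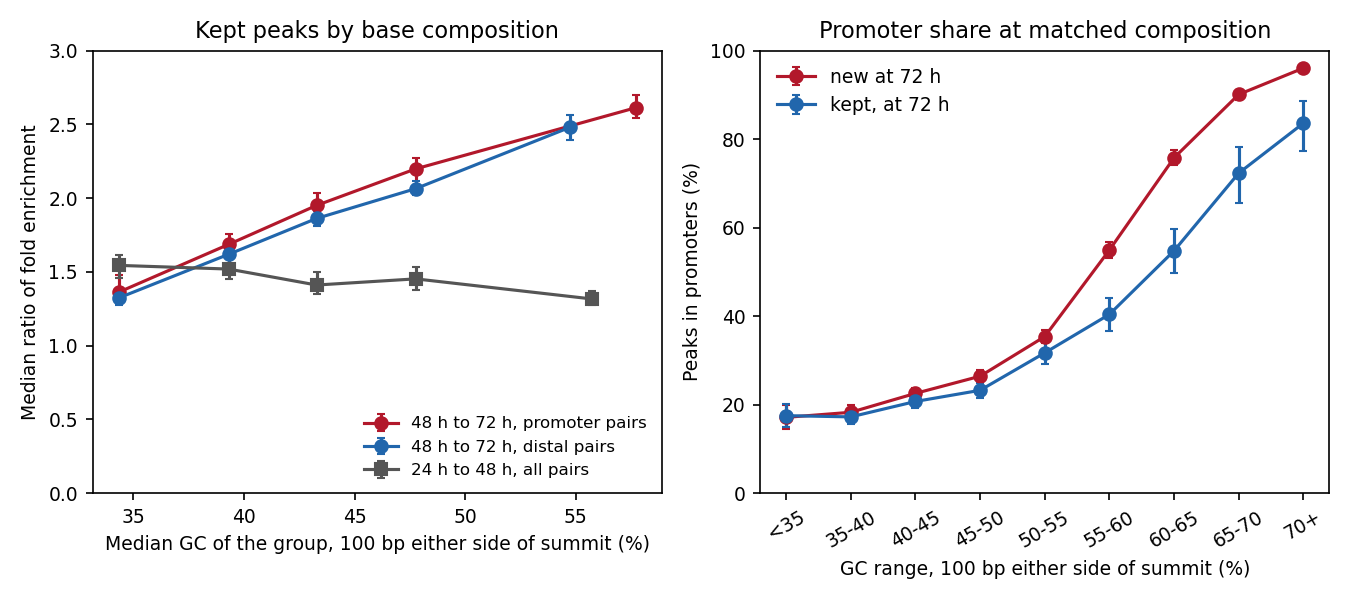
Left, median ratio of fold enrichment of 1-to-1 pairs (y axis) against the median GC content of 5 groups of pairs (x axis, %), for promoter and distal pairs from 48 h to 72 h and for all pairs from 24 h to 48 h; bars are 95% intervals of the median. Right, share of new and of kept peaks that lay in promoters (y axis, %) by GC range (x axis, %), with exact binomial 95% intervals. The 48 h to 72 h ratio climbs with GC content in both kinds of pair, from 1.36 to 2.61 in promoters and from 1.32 to 2.48 in distal pairs, and the promoter shares of both classes lie close together below a GC content of 55%.

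The classes are easiest to see in the sequences at their strongest summits. The lines give 50 bp on either side of the summit, read from the plus strand of hg38. The first 4 are the strongest new promoter peaks of protein-coding genes. In them the 9-letter word TACANNTCC, the core of the element bound by ZNF143 and THAP11, is in capitals where it occurs. That word was searched after the windows of C1orf159 and ST3GAL2 had been read, and those of DDX23 and USP5 lack it. In the other 4 windows the TEAD words ACATTCC and GCATTCC and the AP-1 word TGACTCA are in capitals, on either strand. The AGAP1 window holds none of these.
C1orf159, new promoter, chr1:1116153-1116253: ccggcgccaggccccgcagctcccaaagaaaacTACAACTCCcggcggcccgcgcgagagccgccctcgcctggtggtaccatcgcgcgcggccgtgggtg
ST3GAL2, new promoter, chr16:70439272-70439372: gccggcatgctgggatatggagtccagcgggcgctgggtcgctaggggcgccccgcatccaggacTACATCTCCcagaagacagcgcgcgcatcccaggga
DDX23, new promoter, chr12:48852138-48852238: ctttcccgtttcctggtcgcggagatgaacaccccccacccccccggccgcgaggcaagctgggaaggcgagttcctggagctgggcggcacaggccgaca
USP5, new promoter, chr12:6852463-6852563: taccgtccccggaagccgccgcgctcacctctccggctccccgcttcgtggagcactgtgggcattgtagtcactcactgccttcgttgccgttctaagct
AGAP1, new distal, chr2:235567933-235568033: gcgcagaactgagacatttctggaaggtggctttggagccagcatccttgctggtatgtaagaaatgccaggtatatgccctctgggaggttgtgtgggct
NUAK2, kept distal, chr1:205301539-205301639: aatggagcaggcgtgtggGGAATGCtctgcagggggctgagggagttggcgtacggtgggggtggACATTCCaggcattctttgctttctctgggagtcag
SERTAD4, kept promoter of the pseudogene ST13P19, chr1:210265789-210265889: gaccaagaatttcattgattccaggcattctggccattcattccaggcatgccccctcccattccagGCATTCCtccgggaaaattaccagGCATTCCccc
COL5A2, not called again, chr2:189276531-189276631: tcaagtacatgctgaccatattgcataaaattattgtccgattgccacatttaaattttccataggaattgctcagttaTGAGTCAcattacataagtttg

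The new promoter windows had a GC content from 63.4% (USP5) to 74.3% (C1orf159), with 9 to 15 CG dinucleotides each. The window not called again near COL5A2 had 32.7% and 1 CG. The kept windows near NUAK2 and SERTAD4 held 2 TEAD words each, while the window of the kept promoter peak at GNA11, a G protein subunit gene, held 0 at a fold enrichment of 116.4 and is not printed.

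New peaks lay in promoters about as often as not. A promoter was the 3 kb on either side of any annotated transcription start site (TSS), and distal peaks lay in introns or between genes. Of 27643 new peaks on chromosomes 1 to 22, X and Y, 13979 were in promoters (50.6%, 50 to 51.2), against 2882 of 10966 kept peaks (26.3%, 25.5 to 27.1) and 85 of 537 peaks not called again (15.8%, 12.8 to 19.2). Promoters made up 17.6% of the known bases of the genome. Introns held 29.4% of new peaks, 44.1% of kept peaks and 49.2% of those not called again, and intergenic sequence held 18.5%, 27.4% and 32.2%. The 3 classes were thus ordered from promoters to distal sequence, with the peaks not called again close to the genome's own shares.

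**Figure D2:**
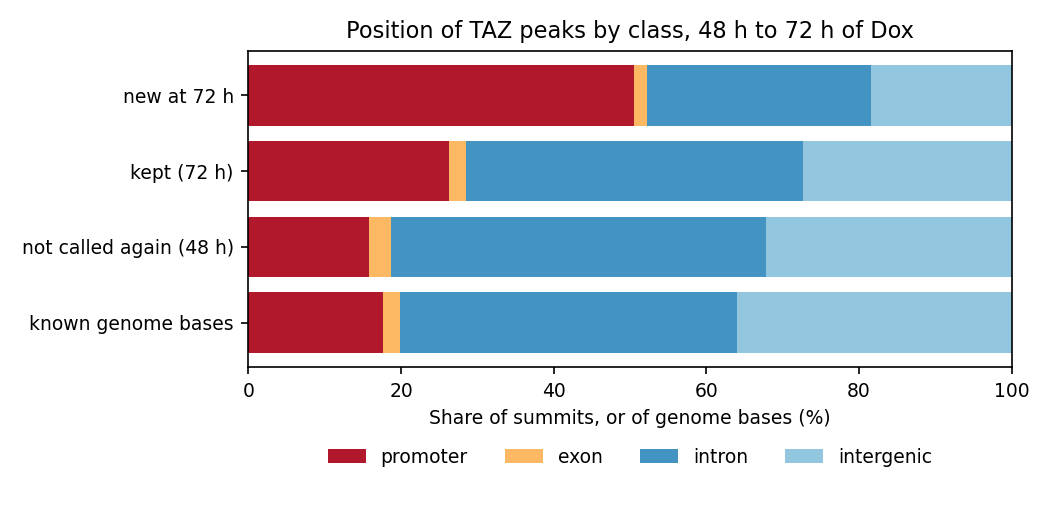
Share of peak summits (x axis, %) by annotation (promoter, exon, intron or intergenic) for new peaks, kept peaks at 72 h, peaks not called again and, in the lowest bar, the known bases of hg38. Promoters take 50.6% of new peaks, 26.3% of kept peaks and 15.8% of peaks not called again.

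At the same base composition that gap was small below a GC content of 50%. Between 40% and 45% GC, promoters held 22.5% of new peaks and 20.7% of kept peaks, and between 45% and 50% they held 26.4% and 23.2%. Below 35% the shares were 17.1% and 17.5%. Above 55% the classes parted: 54.9% of new and 40.4% of kept peaks lay in promoters between 55% and 60%, and 90.1% against 72.3% between 65% and 70%. Distal peaks followed the same order, since 48.8% of distal peaks at 72 h were new below 35% GC and 86.8% above 70%. The part of base composition in the promoter share was not tested beyond these values.

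Within promoters, new peaks sat on the start site. Their median distance to a TSS was 123 bp, and 8699 of 13979 (62.2%) lay within 250 bp. Kept promoter peaks lay at a median of 927 bp, with 776 of 2882 (26.9%) within 250 bp, and the 85 promoter peaks not called again at 1374 bp. A start site was called CpG-rich where its 501 bp had at least 55% GC and an observed to expected CG ratio of at least 0.65. The nearest start was CpG-rich for 8488 new promoter peaks (60.7%, 59.9 to 61.5), 583 kept ones (20.2%, 18.8 to 21.7) and 10 not called again (11.8%). New promoters belonged to protein-coding genes in 84.8% of cases, to lncRNAs alone in 10.1% and to pseudogenes in 3.04%, while kept promoters did so in 64.6%, 22.9% and 7.39%. New and kept promoter peaks thus differed in their distance to the start, its base composition and the type of gene.

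Among new promoter peaks of protein-coding genes, C1orf159 led with a fold enrichment of 59.4, its peak covering chr1:1115793-1116751. It was followed by ST3GAL2, a sialyltransferase, at 56.2, by DDX23, a spliceosomal RNA helicase, at 52.0, and by USP5, which takes apart free ubiquitin chains, at 49.6. TEAD4, itself a DNA-binding partner of TAZ, came next at 48.0, 155397 bp from the nearest 48 h summit. The next were CHMP4B of the ESCRT-III membrane scission machinery (41.1), PEMT, which methylates phosphatidylethanolamine (40.6), the zinc finger gene ZSCAN22 (39.5), UQCC4 (36.7), PAFAH2 (36.7), UNK (34.6), PIGU of the GPI transamidase (33.9), the telomere helicase RTEL1 (33.9), SNAPC3 of the complex that starts snRNA genes (33.2) and the elongation factor TCEA2 (33.0). Of these 15 peaks, 8 were called without Dox, 9 at 24 h and 6 in both, so those 6 sites were absent from the 48 h list alone.

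Calls in the earlier lists were rare among new peaks as a whole. Of 27685 new peaks, 26252 (94.8%) overlapped neither the no-Dox nor the 24 h list, 1346 (4.86%) overlapped a no-Dox peak, 143 (0.517%) a 24 h peak and 56 both. The median fold enrichment was 6.03 for those in neither list, 8.64 for those called without Dox, 12.6 for those called at 24 h and 16.0 for those in both. No-Dox calls were in promoters: 1231 of 13979 new promoter peaks had one (8.81%) against 0.824% of new distal peaks, and 1031 of the 1231 (83.8%) were at CpG-rich starts. Kept peaks differed in their history, with 20.2% called at 24 h and 7.31% without Dox.

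The strongest new distal peak, at 43.4, was an intergenic peak at chr21:6369245-6372387, 4151579 bp from the closest protein-coding start, that of TPTE. In an intron of AGAP1, an Arf GTPase-activating protein, fold enrichment was 29.6 at 43659 bp from the start, and near ETV7, an ETS repressor, it was 29.2. A new intergenic peak of 28.1 at chr11:102268053-102269218 lay 41696 bp from the start of YAP1, the paralog of TAZ, and 37807 bp from the closest 48 h summit. Near KLF6, a zinc finger factor, and PDGFA, a growth factor ligand, new peaks reached 27.1 and 27.0. The remaining 9 of the 15 strongest were near SLC14A2, TMEM64, NKX2-6, ANKRD18A, PELO, DAGLA, SNX6, MDGA1 and FBRSL1, between 25.6 and 27.6. None of these 15 was called without Dox or at 24 h, and 11 were in introns.

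New peaks were closer to 48 h sites than bases of the genome were. The median distance from a new summit to the nearest 48 h summit was 53439 bp (52070 to 54630), 62750 bp for promoter and 43467 bp for distal peaks. Within 10 kb of a 48 h summit lay 4841 new peaks (17.5%) against 6.82% of genome bases, and within 100 kb lay 18340 (66.3%) against 40.6%. The shares were 14.4% and 63.2% for new promoter peaks and 20.8% and 69.6% for new distal peaks. Within 1 kb only 13 new peaks were found, 0.0470% against 0.793% of bases, which the class sets since closer summits mostly share a peak. Both genes and accessible sequence cluster in the genome, and their part in this spacing was not tested.

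Kept peaks were stronger and wider at 72 h. Among 10737 1-to-1 pairs the median ratio of fold enrichment was 1.87 (1.85 to 1.89), and 9745 pairs (90.8%) were above 1. The summits hardly moved, with a median shift of 34 bp and 9145 pairs (85.2%) within 100 bp. The width ratio was 1.61, with 93.5% of pairs wider, and the summit coverage ratio was 1.58 although the background ratio was 0.777. Pairs in the weakest of 5 groups at 48 h went from a median of 4.16 to 8.95 (ratio 2.24), and those in the strongest from 13.6 to 24.0 (ratio 1.65). The 48 h value both set the groups and divides the ratio, so this order cannot show whether weaker sites rose more.

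New peaks resembled the 48 h values of kept peaks in strength. Their median fold enrichment was 6.14 (6.10 to 6.17), against 6.74 at 48 h and 13.2 at 72 h for kept peaks and 4.73 at 48 h for peaks not called again. Median widths were 725 bp for new peaks, 626 and 1076 bp for kept peaks at 48 h and 72 h, and 473 bp for those not called again. New promoter peaks were wider than new distal ones, 854 against 636 bp. By fold enrichment from the weakest to the strongest of 5 equal groups of new peaks, promoters held 54.8%, 49.9%, 47.8%, 48.0% and 52.4%, so the promoter share did not follow strength.

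**Figure D3:**
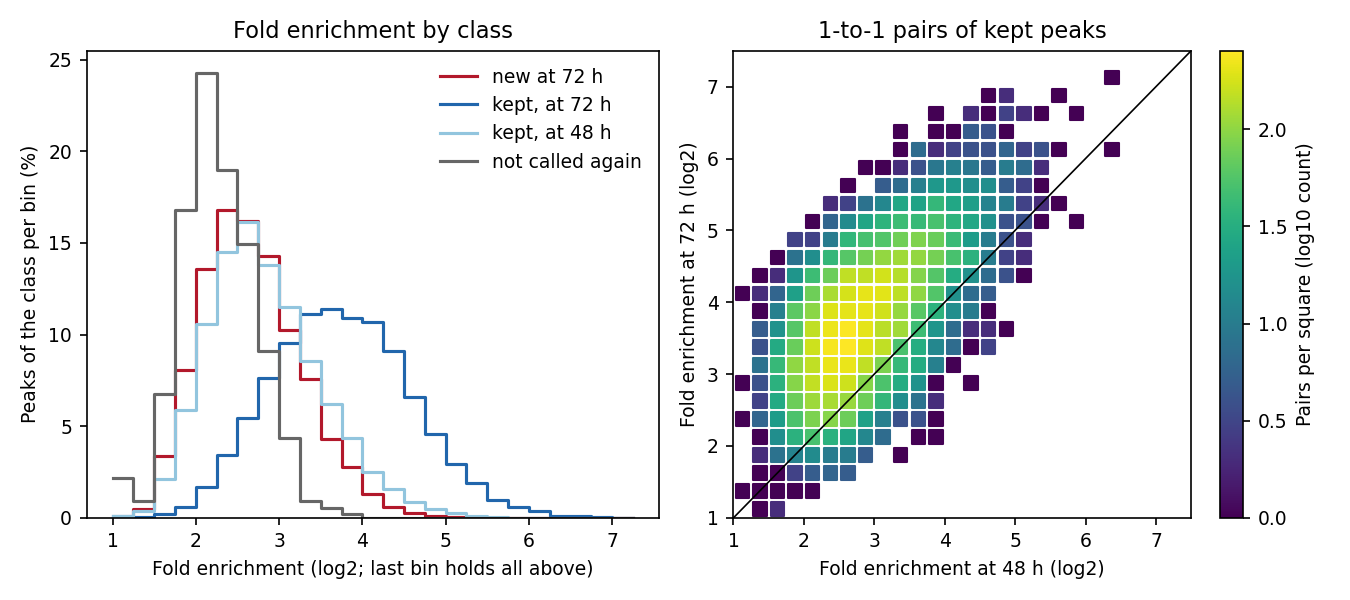
Left, share of each class (y axis, %) by fold enrichment (x axis, log2). Right, number of 1-to-1 kept pairs (colour, log10) by fold enrichment at 48 h (x axis, log2) and 72 h (y axis, log2), with the line of equal values. New peaks overlap the 48 h values of kept peaks, and 90.8% of pairs lie above the line.

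How many new peaks could have been called at 48 h was computed from the coverage of that library. With their 72 h fold enrichment unchanged, 99.8% (99.7 to 99.8) would have passed the least stringent p-value of the 48 h list at the local background scaled to it. With fold enrichment divided by the median ratio of kept pairs, 63.8% would have passed, 65.5% of promoter and 62.1% of distal peaks. Divided by the ratio of the nearest of the 5 groups of kept pairs by GC content, 48.9% (48.3 to 49.4) would have passed. This was 42.3% of promoter and 55.8% of distal peaks. The match was coarse for promoters, since the highest group of pairs had a median GC content of 55.7%, against 64.2% for new promoter peaks. That new sites changed by the ratio of kept pairs is an assumption, and the order between promoter and distal peaks turned with the ratio used.

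Of the 10 largest ratios among kept pairs 6 were in promoters, and the 10 smallest were all distal. Most pairs were distal to begin with, 7689 of all 10737, against 2799 in promoters. DSTYK, a dual-specificity kinase, went from 3.05 to 26.7 (ratio 8.74), FBXL19, a CpG-binding F-box protein, from 3.55 to 30.5 (8.59), NIBAN2 from 5.24 to 44.2 (8.45), a distal site near PDGFA from 6.37 to 52.7 (8.28) and clathrin heavy chain CLTC from 2.63 to 21.3 (8.12). LRP6, a Wnt coreceptor, went from 7.05 to 55.7 (7.90) and VPS45 from 2.34 to 18.8 (8.01). The 48 h local background was high at some of these sites, 13.4 fragments at DSTYK, 11.8 at NIBAN2 and 11.8 at VPS45. The remaining 3 of the 10 were near ATXN3L, TMEM270 and C6orf132. In the opposite direction, a site whose nearest gene was DTWD2 went from 13.7 to 4.15 (0.303), one in an intron of DDAH1, which degrades methylated arginines, from 11.3 to 4.13 (0.365), and one near TSC22D2 from 26.9 to 11.2 (0.415). The other low pairs were near MYOM1, BOD1L1, CDH9, NKAIN2, ZNF705G, GLRB and NSUN3.

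Some kept sites became broad domains over promoters. The peak over AJUBA, a LIM protein that binds LATS kinases, covered 3 peaks of 48 h at chr14:22976581-22983383 and was 6803 bp wide, with fold enrichment of 31.5 at 48 h and 68.4 at 72 h. At TGIF1, a repressor of TGF-beta targets, the width went from 405 to 5913 bp, a ratio of 14.6. The ratio was 14.2 at AHNAK (399 to 5652 bp), 11.4 at CITED2, a CBP/p300-binding regulator (444 to 5069 bp), 10.8 at SFN, the 14-3-3 sigma gene (413 to 4444 bp), 10.2 at EDN1, the endothelin-1 gene (492 to 5015 bp), and 10.2 at PTPN12 (394 to 4006 bp). Of the 72 h peaks, 233 covered 2 peaks of 48 h and 4 covered 3, AJUBA being 1 of these 4. The start nearest to each of the others was that of a lncRNA, such as MIR4435-2HG at 1247 bp, and 1 of them also lay 2753 bp from the start of S100A10.

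Peaks not called again were few, weak and rich in A and T. The highest fold enrichment at 48 h was 14.1 for an intergenic site at chr2:189276213-189276945, 51269 bp from the start of COL5A2, a fibrillar collagen gene. It was followed by sites near NAALADL2 (13.0), FAT4, an atypical cadherin (12.5), KCNA4, a potassium channel (12.3), LRRC7 (10.9), UBE2E3 (10.7), TWIST1, a mesenchymal transcription factor (10.7), TXNRD3 (9.99), SNTG1 (9.89) and PUS7 (9.46). None was in a promoter, and 4 of these 10 had been called at 24 h. Their median distance to the nearest 72 h summit was 17168 bp, with 90 of 548 (16.4%) within 3 kb, so some lay beside a 72 h peak without touching it. By GC content from the lowest group of 48 h peaks to the highest, the share not called again was 12.5%, 5.21%, 2.62%, 1.56% and 0.969%.

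TEAD words were more frequent at summits than in the surrounding sequence, and less so in new promoter peaks than in the others. Exact matches on both strands were counted within 100 bp of each summit, and a match is no proof of binding. TEAD words were in 13.3% of new promoter, 30.4% of new distal, 41.9% of kept promoter and 42.9% of kept distal peaks, against 4.70% to 5.47% in windows 1000 bp away and 3.52% of all protein-coding starts. Below a fold enrichment of 5, TEAD words were in 19.1% of new and 28.0% of kept distal peaks. From 5 up, distal peaks of the same strength held them alike. Between 5 and 8 the shares were 31.2% of new and 31.2% of kept. They were 39.0% and 37.3% between 8 and 12, and 56.3% and 56.0% from 20. Promoter peaks of the same strength did not hold them alike. Their shares were 13.0% of new and 31.5% of kept between 5 and 8, and 21.4% and 55.6% from 20. Among new promoters the word was in 565 of 8488 at CpG-rich starts (6.66%) and in 1294 of 5491 others (23.6%), while kept promoters held it in 37.0% and 43.1%.

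AP-1 words (TGACTCA) were in 21.0% of new and 20.7% of kept distal peaks, and in 8.25% and 17.9% of promoter peaks. RUNX words (TGTGGTT) were in 7.72% of new and 11.1% of kept distal peaks. ETS words (CCGGAAG) were in 11.5% of new promoter peaks, close to the 10.2% of all protein-coding starts, and in 2.98% of kept promoter peaks. For SP/KLF words (GGGCGGG) the shares were 30.8%, 33.1% and 9.16%. New promoter peaks carried ETS and SP/KLF words about as often as starts in general. AP-1 words were in 2.62% of those starts, below their 8.25% in new promoter peaks. RUNX words were in 3.27% of new promoter peaks and 2.45% of starts. Among the new promoters called without Dox, ETS words stood at 29.3%, against 9.73% of the others.

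The ZNF143-type word was frequent at the top of the new promoter peaks. Overall it was in 671 of 13979 (4.80%, 4.45 to 5.17), against 1.68% of windows 1000 bp away, 2.97% of all protein-coding starts and 2.29% of kept promoter peaks. By rank of fold enrichment it was in 26 of the first 50 (52.0%, 37.4 to 66.3), then in 34.0% of the next 150, 18.4% of the next 800, 7.5% of the next 3000 and 2.22% of the remaining 9979. Without the C1orf159 and ST3GAL2 peaks, which led to the search, it was in 24 of the first 48 (50%). The TEAD word in the same ranks was in 12%, 26.7%, 23.1%, 19.0% and 10.6%. In the first 50 kept promoter peaks the order was turned, with TEAD words in 76.0% and the ZNF143-type word in 0 of 50. Calls without Dox followed the same ranks among new promoters, with 36.0% of the first 50 and 5.08% of the last group, and CpG-rich starts made up 78.0% and 60.3%.

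**Figure D4:**
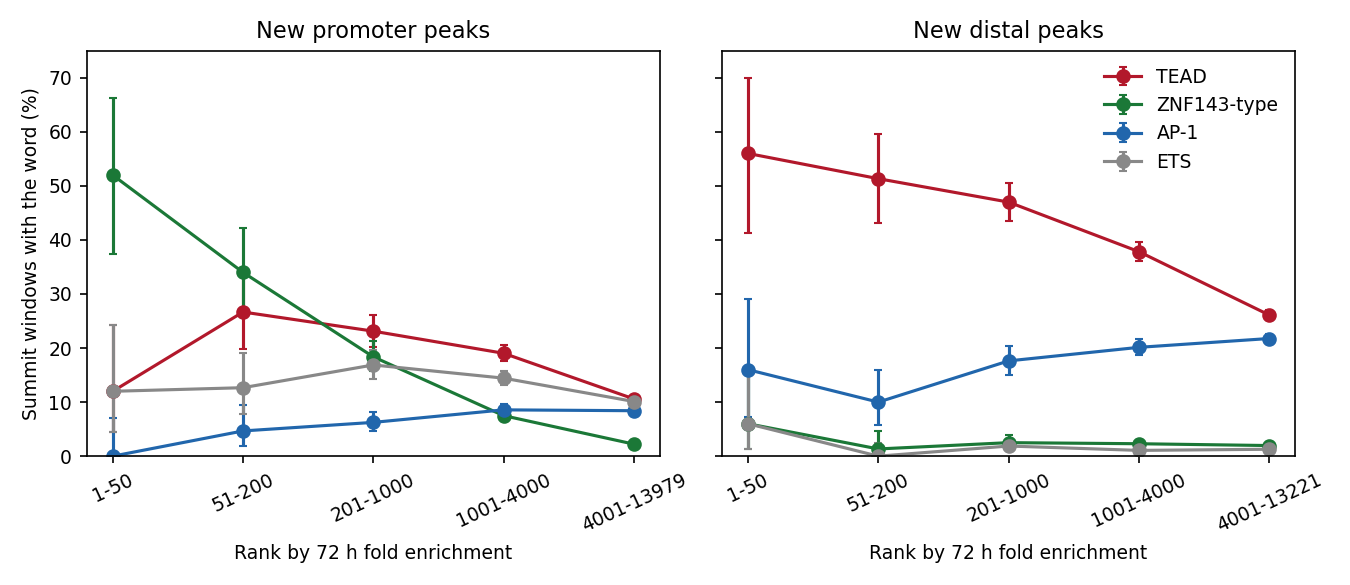
Share of windows of 100 bp on either side of the summit with each sequence word (y axis, %) by rank of 72 h fold enrichment (x axis, strongest first) for new promoter and new distal peaks, with exact binomial 95% intervals. In promoters the ZNF143-type word goes from 52.0% to 2.22% across the ranks, and in distal peaks the TEAD word goes from 56.0% to 26.1%.

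Of 20007 protein-coding genes, 1820 (9.10%) had a promoter peak at 48 h and 11696 (58.5%) at 72 h. A gene had a promoter peak where a summit lay within 3 kb of any of its starts. Its value at each time was that of the strongest such peak in that list. A peak could thus count for several genes, and the values of a gene at 48 h and 72 h could come from different peaks. A promoter peak was gained by 9891 genes (49.4%), held at both times by 1805 and listed at 48 h only by 15. Gained peaks had a median fold enrichment of 6.60, and genes with a peak at both times went from 6.28 to 14.5. Of genes with a CpG-rich start, 64.9% gained a peak, against 31.9% of the others, whereas 9.32% and 8.69% held one at both times. A distal 48 h peak was near 38.9% of genes with a peak at both times, 19.8% of those that gained one and 11.9% of those with neither.

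Known YAP/TAZ targets mostly had their promoter peaks already at 48 h. Of 23 signature genes, 15 had one at both times (65.2%, against 9.02% of all genes). Another 7 gained one (30.4%, against 49.4% of all genes), and FOXF2 had none. Genes with a 48 h peak could not gain one. At 72 h 95.7% of the signature had a promoter peak, against 58.5% of all genes. The median of the 15 went from 16.4 to 37.9. CCN2, a matricellular protein also named CTGF, went from 19.9 to 37.9, CCN1 from 16.4 to 38.7, ANKRD1 from 19.2 to 31.0, AMOTL2, a junction scaffold that binds YAP and TAZ, from 21.8 to 61.3, and the receptor kinase AXL from 12.8 to 65.1. NT5E was an exception, at 10.8 and 9.64. The 7 that gained a peak were weaker at 72 h, from 4.13 at IGFBP3 and 6.32 at the coagulation factor receptor F3 to 10.0 at FJX1.

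Hippo pathway genes were split. Of 30, 12 had a promoter peak at both times, against 9.02% of all genes. Another 15 gained one, a share close to the 49.4% of all genes. At 72 h 90% of the 30 had one, against 58.5% of all genes. The LATS2 kinase went from 19.2 to 36.7, its scaffolds WWC1 and WWC2 from 17.8 to 40.7 and from 10.6 to 71.5, the TEAD-binding competitor VGLL4 from 6.96 to 34.8, and WTIP, a LIM protein, from 22.7 to 101.6. TAZ's own gene, WWTR1, went from 7.23 to 11.9. Peaks were gained at YAP1 (17.7), at the kinases LATS1 (11.1) and STK3 (5.78), at the adaptor SAV1 (9.09) and at NF2 (8.04). Among the TEAD genes, TEAD1 went from 26.4 to 88.6 and TEAD3 from 4.05 to 8.94, while TEAD4 (48.0) and TEAD2 (3.66) gained a peak. The TEAD4 peak had also been called at 24 h. The TEAD2 peak lay nearer to the start of another protein-coding gene, and the paper reported no TAZ at the TEAD2 promoter.

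Of 15 AP-1 genes 8 gained a promoter peak (53.3%), near the 49.4% of all genes, and 3 had one at both times. At 72 h 73.3% of AP-1 genes and 91.7% of the RUNX, STAT and ETS factors below had one, against 58.5% of all genes. FOSL1 (15.1), ATF3 (9.73), JUND (9.05), JUNB (8.92) and FOS (8.57) were among the 8, and JUN went from 6.86 to 17.8 and FOSL2 from 5.34 to 10.99. Of 24 RUNX, STAT and ETS factors 15 gained a peak (62.5%, 40.6 to 81.2, an interval that holds the share of all genes), among them RUNX1 (11.9) and GABPA (10.3). Of 12 EGFR ligands and receptors 9 did (75%, 42.8 to 94.5), with the receptor ERBB2 at 31.6, EGFR at 7.38 and the ligands AREG and HBEGF at 8.26 and 6.51.

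Cell cycle genes were largely new. Of 35, 29 gained a promoter peak (82.9%, against 49.4% of all genes and 64.9% of those with a CpG-rich start), 3 had one at both times and 3 had none. The spindle checkpoint kinase BUB1B stood at 15.5, AURKA at 13.8, the replication helicase subunit MCM7 at 13.8 and the phosphatase CDC25C at 13.6. Those with a promoter peak already at 48 h were the G1 regulators CCND1 (11.05 to 23.3), CDK2 (6.14 to 17.9) and CDK6 (6.48 to 12.2). The peaks counted for AURKA, CDC25C and CDK2 lay nearer to the start of another protein-coding gene. Amino acid synthesis genes showed a like share, 18 of 22 (81.8%), with the aminotransferases BCAT2 (26.5) and GPT2 (24.1) highest and the serine pathway enzymes PHGDH (7.27) and PSAT1 (7.05) lower.

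Families of general cell functions showed like shares. A promoter peak was gained by 68 of 78 mitochondrial ribosomal protein genes (87.2%), 33 of 39 proteasome genes (84.6%), 31 of 37 complex I genes (83.8%) and 62 of 85 cytosolic ribosomal protein genes (72.9%). The values for cell cycle genes were therefore in the range of these families. Of 30 NF-kB and TNF genes 20 gained a peak (66.7%, near the 64.9% of genes with a CpG-rich start), with the adaptor TRAF2 at 16.3 and the inhibitor NFKBIA at 15.9.

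Epithelial junction and mesenchymal genes gained promoter peaks at shares near the 49.4% of all genes. Genes with a 48 h peak could not gain one, and such genes were more frequent in both lists than among all genes (9.10%). At 72 h 80.8% of the junction and 85% of the mesenchymal genes had a promoter peak, against 58.5% of all genes. Of 26 epithelial junction genes 13 gained a promoter peak and 8 had one at both times, among them the E-cadherin gene CDH1 (20.9 to 43.2) and CGN (10.4 to 43.9), with desmoplakin DSP gained at 13.2. Of 20 genes of the epithelial to mesenchymal transition 11 gained one, with the repressors ZEB2 at 8.91, SNAI2 at 6.01, SNAI1 at 4.60 and ZEB1 at 4.08, and 6 had one at both times, such as TAGLN, a marker of smooth muscle and mesenchymal cells (6.02 to 23.9). Of 20 basal and luminal mammary markers, 9 had a promoter peak at both times. Another 7 gained one (35%), such as KRT14 at 4.94 and GATA3 at 5.26. TP63, ESR1, PGR and ELF5 had none. Among the 9, the basal keratin KRT5 went from 10.0 to 34.6 and the luminal keratin KRT19 from 6.04 to 34.4. Of all protein-coding genes 41.5% had a promoter peak at neither time. Among genes of other tissues this held for 13 of 15 liver, 13 of 15 blood and 14 of 15 muscle markers. It held for 10 of 15 neuron markers and 388 of 400 olfactory receptors.

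**Figure D5:**
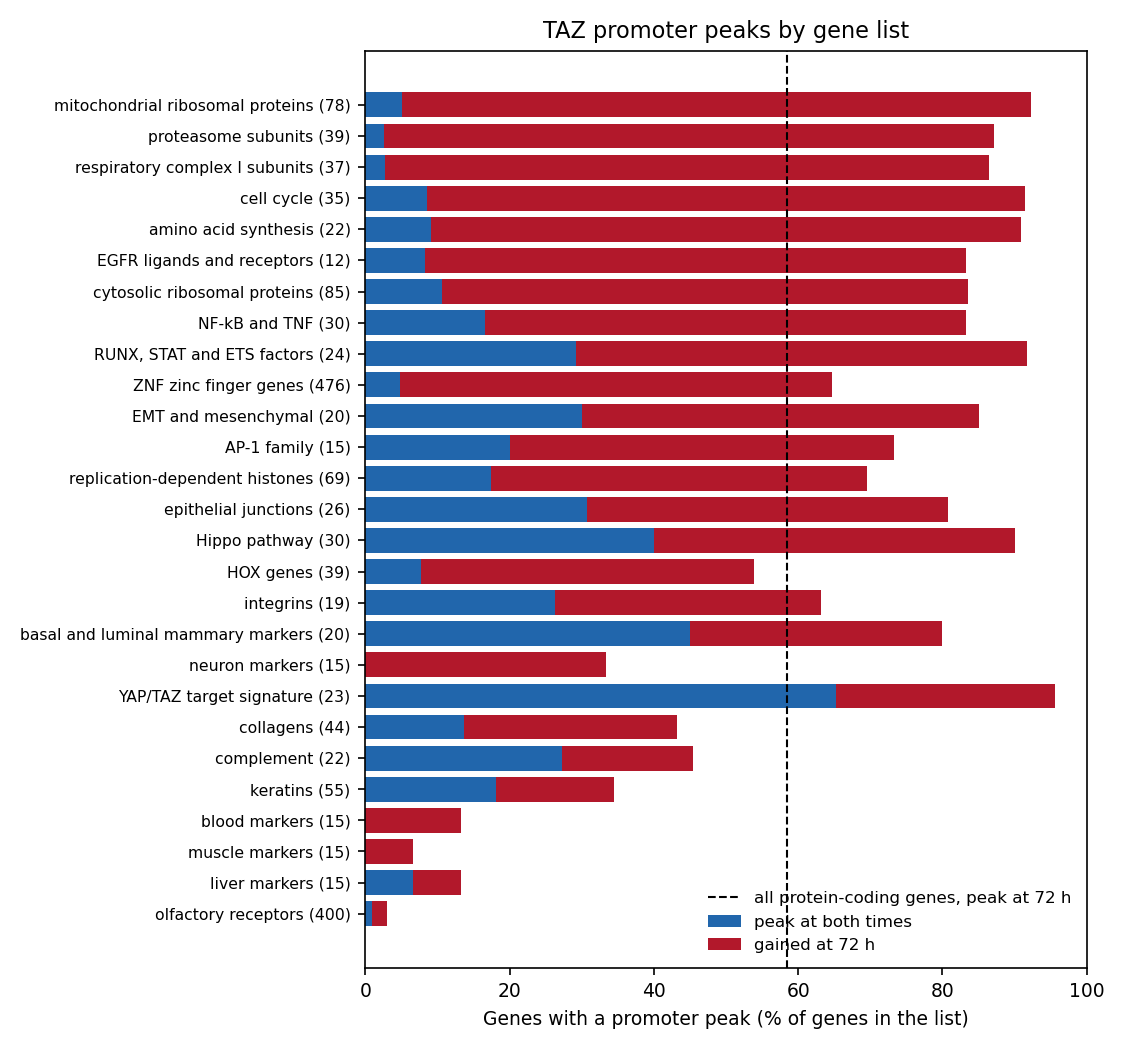
Share of genes with a promoter peak (x axis, %) in each gene list (y axis, number of genes in parentheses), split into genes with a peak at both times and genes that gained one at 72 h; the dashed line is the 58.5% of all protein-coding genes with a peak at 72 h. Mitochondrial ribosomal protein genes have the largest gained share, 87.2%, while the YAP/TAZ target signature has 65.2% at both times.

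New peaks also accumulated around single genes. Of all protein-coding genes, 11928 (59.6%) were the nearest to at least 1 new peak within 100 kb, and 7802 of these (65.4%) had no 48 h peak near. The most were at PRKAG2, an AMPK subunit, with 19 new peaks beside 9 peaks of 48 h, at EXT1, a heparan sulfate polymerase, with 17 beside 13, and at TNS3, a focal adhesion protein, with 17 beside 6. The kinase PRKCH and the TGF-beta effector SMAD3 had 16 each, and ARHGAP26, CUX1, RAD51B and RUNX1 had 15 each. These 9 genes had at least 6 peaks of 48 h near, and the length of their neighbourhoods was not corrected for.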

How the data were processed

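TAZ ChIP-seq of MCF10A cells gave 1 peak list for each of 4 groups. The authors trimmed reads, mapped them to hg38 with BWA and called peaks in MACS2, keeping a false discovery rate of 0.01. Tool versions, and whether IgG served as the control, were not given in the sources used here. The deposited lists hold the fold enrichment (a ratio of summit to local background coverage, each with a pseudocount of 1), a −log10 p-value and a −log10 q-value for each peak. Each list came from 1 library, so no replicate could be compared and no model was fitted.

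From these, summit coverage and local background were solved for every peak, since the p-value is a Poisson tail, and read depth itself was not used. Lists were compared by overlap of at least 1 bp, and annotated with GENCODE 44 on hg38, whose chromosome names matched. Words were counted within 100 bp of each summit. The steps were tested on simulated data. Python 3.11.15, NumPy 2.4.6, SciPy 1.17.1, pandas 2.3.3, pysam 0.24.0, samtools 1.23.1 and matplotlib 3.10.9 were used. Intervals are exact (Clopper-Pearson) binomial or order-statistic 95% intervals. Genes named were the 15 strongest new promoter and 15 strongest new distal peaks, the 10 strongest not called again, the 10 highest and 10 lowest pair ratios, the 10 genes with the most new peaks, 10 peaks of the widest growth or spanning the most 48 h peaks, and list members. Some items these rules select are not reported here. The members and lists were chosen with earlier results of these data known. Alternatives changed the overlap rule, q threshold, coverage, promoter window, start sites, word window and expected 48 h value.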

Additional observations from a re-analysis of the deposited data

How the results depend on the processing

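Of 38 alternative values over 12 results, 14 stayed within the counting interval of the reported value or within 1.5 times a count, and 24 moved. A reversal could be scored only for the ratios of fold enrichment and of width, and neither reversed. For the other results it could not be scored. The number of new peaks ranged from 25588 to 30994 and the genes that gained a promoter peak from 9508 to 9697 under the alternatives run for each. Requiring an overlap of 50% of both peaks gave 34.8% of 48 h peaks not called again, a fold enrichment ratio of 1.72, a width ratio of 1.43, promoter shares of 49.1% (new) and 21.6% (kept), and a median distance of 41389 bp. Kept peaks widened, so this rule drops many of them. With summits within 250 bp 11.4% were not called again, and at 1 background coverage 4.20%. A promoter window of 1 kb gave 40.4% and 13.8%, and protein-coding starts alone 42.9% and 17.0%. A −log10 q of at least 5 gave a distance of 57152 bp and TEAD words in 32.1% of new distal peaks. Words sought within 50 and 200 bp of the summit gave TEAD words in 22.3% and 36.3% of new and 33.2% and 49.3% of kept distal peaks, and the ZNF143-type word in 3.31% and 6.27% of new promoters. New peaks callable at 48 h were 96.1% at the genome-wide background. With fold enrichment divided by a ratio they were 63.8% (all pairs), 45.2% (weakest pairs) and 48.9% (nearest group of pairs by GC content). The word windows for ZNF143 and the 3 divided values were chosen after seeing the data, as was the split by base composition. No paired analysis was possible because each group had 1 TAZ library and no test was run. Depth limits a 48 h call to 16 fragments at a local background of 4.94, a fold enrichment of 2.86.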

Other observations

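New peaks were spread unevenly over the chromosomes. They made up from 67.3% of 72 h peaks on chromosome 8 to 82.5% on chromosome 19, leaving out Y, and chromosome 19 had 1128 new peaks, 19.3 per Mb, beside 25.3 protein-coding genes per Mb and 1 peak not called again. Chromosome 17 had 16.0 new peaks per Mb, chromosome 13 6.53 and X 4.42.

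Other gene families are given beside all protein-coding genes, of which 49.4% gained a promoter peak and 9.02% had one at both times. Genes with a 48 h peak could not gain one. Of 69 replication-dependent histone genes 36 gained one (52.2%) and 12 had a promoter peak at both times, and of 476 ZNF zinc finger genes 285 gained one (59.9%) and 23 had one at both times. Of 55 keratins 9 gained a peak and 10 had one at both times, of 44 collagens 13 and 6, of 19 integrins 7 and 5, and of 39 HOX genes 18 and 3. Of 22 complement genes 4 gained a peak (18.2%), with the protease C1S at 10.5. Another 6 had one at both times, among them C3, the central complement component (4.58 to 16.0), and the receptor C5AR1 (5.01 to 18.9). At 72 h 45.5% of complement genes had a promoter peak, against 58.5% of all genes. Among cofactor genes, KMT2D, a histone H3 lysine methyltransferase, gained a peak of 9.56, PRMT5 went from 4.64 to 10.1, and MED1 had none.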
